A study of Mus musculus with 12 samples.

Results

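The response of the intestinal transcriptome to a high-fat diet was measured in mice without Ppara in the intestinal epithelium (PparaΔIE), by comparing 3 bulk RNA-seq libraries of PparaΔIE mice on a high-fat diet with 3 libraries of PparaΔIE mice on chow. These 6 libraries are those titled KO HFD and KO chow among the 12 libraries of the series, and every gene with enough counts in them was tested. Both groups were male C57BL/6 mice aged 7 to 8 weeks with the PparaΔIE genotype. They received chow or a diet named in the labels as 60% HFD, each over 10 days. Both groups carry the deletion, so the comparison is between diets and not between genotypes. The other 6 libraries, Pparafl/fl mice (floxed, the control genotype) on the same diets, were used for their own diet response, for the test of the difference between genotypes, for Ppara levels and in alternative fits. Neither the intestinal segment, the recombinase line with its promoter nor the deleted exons are stated in the labels. Whether each library is a different mouse is not stated either, so the p-values reflect only the spread among these libraries, and that spread may be technical.

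PPARA is a fatty acid-activated nuclear receptor that, paired with a retinoid X receptor (RXR), switches on genes of fatty acid oxidation, ketone body synthesis and fat handling. Enterocytes take up dietary fat, rebuild it into triglyceride and export it in chylomicrons, and they oxidise part of it in mitochondria and peroxisomes. PPARD and PPARG are related receptors that also bind fatty acids and recognise similar DNA sequences, so genes called PPARA targets can be reached by other receptors.

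Levels are given as CPM, counts scaled to a common library size over the 6 libraries, and differences as log2 fold changes of HFD against chow with their standard error (SE). A gene was said to rise or fall when edgeR's quasi-likelihood test gave an adjusted p under 0.05 (Benjamini-Hochberg over 16844 genes tested). Of these genes 335 (1.99%) passed. HFD was higher for 127 (0.754%) and lower for 208 (1.23%). Among them 44 were at least 2-fold higher and 70 at least 2-fold lower. The median log2 fold change was 0.77 among the genes that rose, -0.76 among those that fell and 0.01 over all genes tested. The HFD and chow libraries did not overlap for any of the 335 genes, while over all tested genes 13.1% were without overlap and higher and 13.2% without overlap and lower. Counts of list members that rose or fell stand against the 0.754% and 1.23% of all genes. Values were above 0 for 50.9% of all genes tested.

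Ppara itself was measured at 8.499, 15.5 and 12.97 CPM on chow and 11.5, 11.1 and 17.1 CPM on HFD. The groups overlapped, and the difference did not pass the test (log2 fold change 0.10, with SE 0.25 and adjusted p = 0.85). On a scale common to all 12 libraries Ppara lay between 8.42 and 17.3 CPM in the 6 PparaΔIE libraries and between 18.1 and 39.3 CPM in the 6 floxed libraries, without overlap. Counts per gene do not separate deleted exons from retained ones.

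The 6 libraries held 33621040 to 39751980 expected counts, and 1 CPM stood for 33.6 to 39.8 counts. PparaΔIE chow 3 lay between chow 1 and chow 2 for 216 of the 222 genes that differed at least 2-fold between chow 1 and chow 2 (97.3%). For the other 5 libraries that share was 16.7% to 79.1%. Across 107 immunoglobulin V genes, whose use marks the B cell clones of an animal, chow 3 correlated at 0.875 with chow 1 and at 0.853 with chow 2, while chow 1 and chow 2 correlated at 0.580. All other pairs of the 6 libraries lay between 0.496 (chow 2 with HFD 2) and 0.773 (HFD 2 with HFD 3). These are correlations across genes, which are not independent replicates. Whether chow 3 is a sample independent of chow 1 and chow 2, or holds material of both, was not tested. If it is not independent, the chow group holds 2 independent samples, and the SE and adjusted p of all 335 calls do not apply as given. The 335 calls rested on few libraries. Without chow 3 only 25 genes passed (0.145%), and without HFD 1 only 47 (0.273%). The count was 150 without HFD 2 (0.873%), 150 without HFD 3 (0.869%), 227 without chow 1 (1.32%) and 1312 without chow 2 (7.65%). Of the 80 genes that passed and are given with a fold change in the text, 15 passed without chow 3 and 21 without HFD 1, and none changed direction in any of the 6 fits. In all 6 of these fits 19 genes passed. They were Apoa4, Chordc1, Hsph1 and Myh11, which rose, and Pparg, Gsta3, Gstm2, Itpka, Prss8, Ces1f, Mt2, Ubd, Car8, Ifit2, Irgm2, Cd177, Ceacam10, Klk1 and Igkv4-72, which fell.

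Segment markers varied among libraries of the same group. Lct, which encodes lactase and marks the proximal gut, was at 0.457, 101 and 57.6 CPM on chow and 50.4, 128 and 143 CPM on HFD. Fgf15, a hormone gene of the distal ileum, was at 15.2, 108 and 69.3 CPM on chow and 159, 79.4 and 103 CPM on HFD, and the ileal bile acid transporter gene Slc10a2 at 1525, 919.7 and 1168 CPM on chow and 1241, 1022 and 1275 CPM on HFD. All 3 genes were detected in every library, with chow 1 lowest for Lct and Fgf15, and the groups overlapped for each. Of 9 distal ileum markers none passed in edgeR (0 at an unadjusted p under 0.05, 0 in DESeq2 and 0 in limma-voom), with a median log2 fold change of -0.01, and of 11 proximal markers 3 rose (Apoa4, Fabp1 and Rbp2, which are also fat-handling genes). A score over the proximal list was -0.67, -0.09 and -0.13 on chow and -0.04, 0.50 and 0.43 on HFD. It was higher in every HFD library than in any chow library, so a fit with it cannot separate score from diet. With that score as a covariate 11 genes passed. With a score that leaves out the fat-handling members, a setting chosen after seeing the data, 217 passed. Smooth muscle markers also moved with diet and are described further on.

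**Figure D1:**
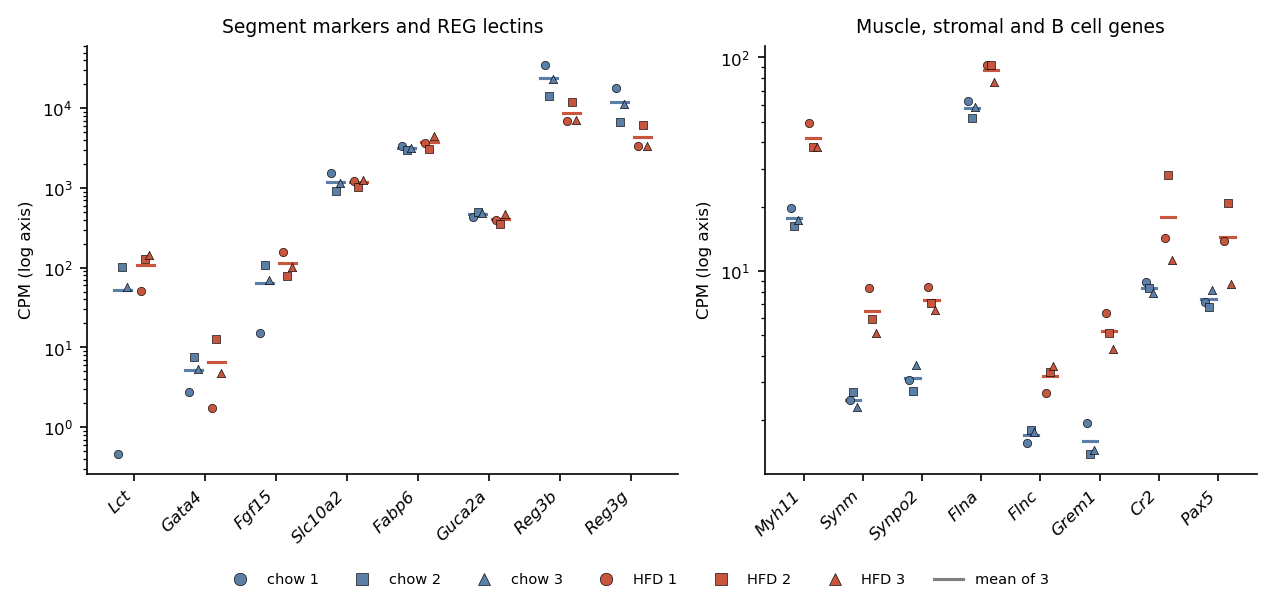
CPM (log axis) in each of the 6 PparaΔIE libraries, with chow in blue, HFD in red, the marker shape giving the replicate number and the line the mean of 3. Left, Lct and Fgf15 are far lower in chow 1 than in the other libraries while Slc10a2 and Fabp6 differ little. Right, the smooth muscle genes and Grem1 are higher in all 3 HFD libraries.

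The first question was how genes of dietary fat handling respond when the epithelium lacks PPARA. Genes that rose included members of chylomicron export, intracellular fatty acid binding and peroxisomal oxidation, and no member of the 33 tested PPARA targets fell. Apoa4 encodes apolipoprotein A-IV, a major protein of chylomicrons (chromosome 9, 46240696 to 46243459, mm10). It was at 258, 317 and 303 CPM on chow and 971, 1094 and 1283 CPM on HFD. Every HFD library was about 3-fold or more above every chow library. The rise was 3.81-fold (log2 fold change 1.93, with SE 0.13 and adjusted p = 0.00062), and the gene passed in all 6 fits that leave out a library. Apob, the structural apolipoprotein of the chylomicron, was at 5748, 6167 and 5921 CPM on chow and 8312, 8902 and 11119 CPM on HFD. It rose by a smaller margin (log2 fold change 0.67, with SE 0.14 and adjusted p = 0.045). Sec24d, a coat protein of vesicles that leave the endoplasmic reticulum, rose by 0.39 (SE 0.07, adjusted p = 0.035). Angptl4, a secreted inhibitor of lipoprotein lipase and a PPAR target, was at 25.4, 16.96 and 20.2 CPM on chow and 42.8, 42.5 and 64.4 CPM on HFD (log2 fold change 1.26, with SE 0.20 and adjusted p = 0.03). In the list of 19 chylomicron and triglyceride clearance genes these 4 rose, none fell and 15 did not pass, with a median of 0.06. Mttp, which loads lipid onto apolipoprotein B, did not pass (log2 fold change 0.16, SE 0.14, adjusted p = 0.54). The list's count was 1 without chow 3, 1 without HFD 1 and 2 without HFD 3.

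Fabp1 encodes liver fatty acid-binding protein, which carries fatty acids inside enterocytes and is a PPARA target (chromosome 6, 71199827 to 71205023, mm10). Its level was 3.74, 3.68 and 3.83 CPM on chow and 9.09, 17.9 and 13.1 CPM on HFD. The 3 chow libraries were nearly equal, and all HFD libraries lay above them, as for every gene that rose. The rise was 3.57-fold (log2 fold change 1.84, with SE 0.23 and adjusted p = 0.0089). Fabp1 passed in 5 of the 6 fits that leave out a library, and not without chow 3 (adjusted p = 0.059). With all 12 libraries fitted it did not pass (log2 fold change 1.84, with SE 0.58 and adjusted p = 0.091). Fabp2, the intestinal fatty acid-binding protein, was at 2382, 1931 and 2107 CPM on chow and 3173, 3133 and 4708 CPM on HFD. Its groups did not overlap, but the difference did not pass (log2 fold change 0.78, SE 0.17, adjusted p = 0.051). The 300 bases around the Fabp1 start site are printed because they hold a match to the direct repeat that PPAR and RXR bind, searched as AGGNCANAGGNCA on both strands and shown in capitals. The window is from RefSeq, GRCm38.p6 chr6:71199629-71199928, plus strand, 5′ to 3′, and the match begins 67 bases before the start site.
Fabp1: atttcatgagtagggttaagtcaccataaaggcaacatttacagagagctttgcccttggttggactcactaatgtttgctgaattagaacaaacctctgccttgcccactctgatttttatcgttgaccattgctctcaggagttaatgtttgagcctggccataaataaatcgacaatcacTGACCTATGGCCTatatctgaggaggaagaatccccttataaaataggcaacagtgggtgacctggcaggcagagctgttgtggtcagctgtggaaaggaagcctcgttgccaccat
Of 27025 genes with such a window 122 (0.451%) held a match, and of 26 listed PPARA targets in the table Fabp1 alone held one. A match of letters is a description and not a measured binding site.

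Among the 33 PPARA targets 5 rose, none fell and 28 did not pass (median 0.39, with values above 0 for 27 members, against 50.9% of all genes above 0). Besides Fabp1 and Angptl4 these were Cidec, a lipid droplet protein (16.9, 18.5 and 19.97 CPM on chow and 31.1, 27.4 and 38.8 CPM on HFD), Pex11a, which promotes peroxisome division (16.03, 14.8 and 14.6 CPM on chow and 27.1, 19.2 and 22.9 CPM on HFD), and Cpt2, the inner-membrane carnitine palmitoyltransferase (61.4, 55.02 and 60.5 CPM on chow and 84.6, 73.4 and 99.9 CPM on HFD). For each of the 3 genes all HFD libraries were above all chow libraries, as for every gene that rose. Their log2 fold changes were 0.81 (SE 0.13, adjusted p = 0.02), 0.61 (SE 0.13, adjusted p = 0.045) and 0.54 (SE 0.11, adjusted p = 0.047). The count was 0 without chow 3, 1 without HFD 1, 3 without HFD 3 and 13 without HFD 2. It was 0 with the proximal score as a covariate and 5 with the score that leaves out fat-handling genes. The proximal score includes Fabp1 and did not overlap between diets, so its fit cannot separate score from diet. HFD 2 was the lowest HFD library for several targets. Pdk4, the pyruvate dehydrogenase kinase that spares glucose, was at 0.0269, 0.365 and 0.181 CPM on chow and 13.8, 0.786 and 12.4 CPM on HFD. HFD 1 and HFD 3 were far above chow. HFD 2 was also above all chow libraries, but nearer to the highest of them than to HFD 1 or HFD 3. The gene did not pass (adjusted p = 0.14). Cpt1a, the rate-limiting carnitine palmitoyltransferase, was at 90.1, 122 and 105 CPM on chow and 167, 129 and 199 CPM on HFD and did not pass (log2 fold change 0.64, with SE 0.16 and adjusted p = 0.079).

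**Figure D2:**
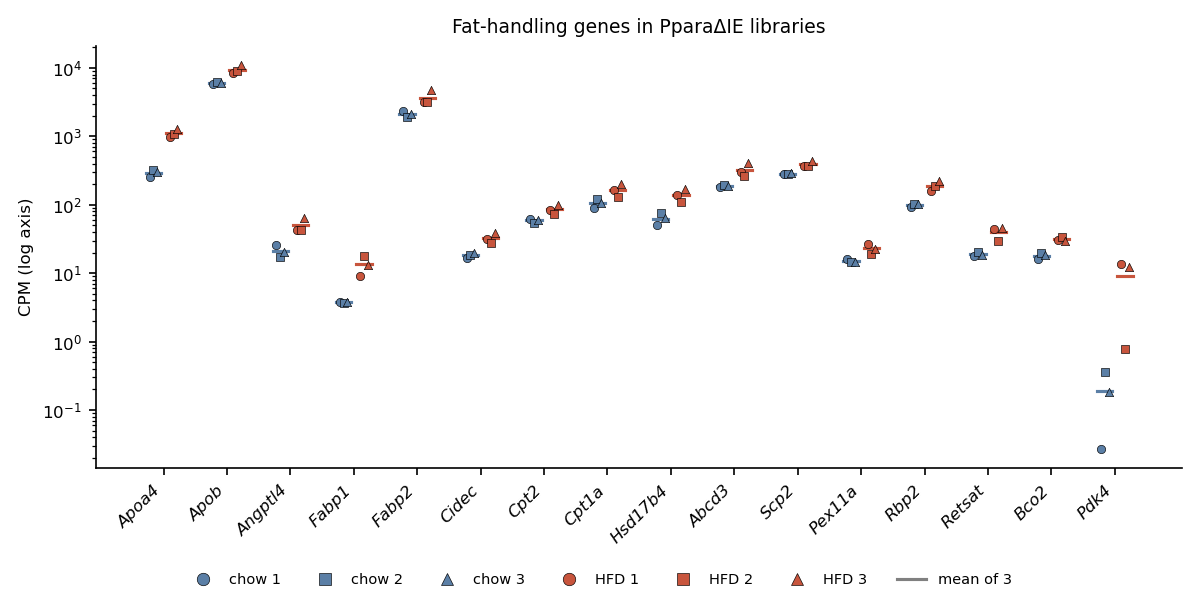
CPM (log axis) of 16 fat-handling genes in each of the 6 PparaΔIE libraries, chow in blue and HFD in red, with the mean of 3 as a line. Apoa4 and Fabp1 are separated by diet in every library, whereas Pdk4 in HFD 2 (red square) lies close to the chow libraries.

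The oxidation lists were mixed. Of 23 genes of mitochondrial fatty acid oxidation, Cpt2 rose and none fell (median 0.15). That count was 5 without HFD 2 and 0 without chow 3, HFD 1 or HFD 3. Hadha, a subunit of the trifunctional protein, was at 172, 151 and 159.8 CPM on chow and 233, 187 and 269 CPM on HFD and did not pass (log2 fold change 0.51, with SE 0.13 and adjusted p = 0.07), and Acadm, the medium-chain acyl-CoA dehydrogenase, stayed near 72.1 to 89.6 CPM in both groups (log2 fold change -0.13, SE 0.09, adjusted p = 0.42). Of 24 peroxisomal genes 4 rose and none fell (median 0.03). Hsd17b4, the bifunctional enzyme of peroxisomal oxidation, was at 50.5, 75.03 and 63.3 CPM on chow and 140.3, 110.3 and 169.8 CPM on HFD (log2 fold change 1.15, with SE 0.18 and adjusted p = 0.027). Abcd3, a peroxisomal importer, was at 183, 195 and 189 CPM on chow and 301, 267 and 406 CPM on HFD (log2 fold change 0.78, with SE 0.14 and adjusted p = 0.03). Scp2, sterol carrier protein and peroxisomal thiolase, rose by 0.47 (SE 0.10, adjusted p = 0.047), and Pex11a is given above. In each of these 4 genes the groups did not overlap, as for every gene that passed. The peroxisomal count was 0 without chow 1, chow 3 or HFD 1, 1 without HFD 3 and 6 without chow 2. Of 7 ketone body genes only Oxct1, which uses ketone bodies, passed, and it fell (308, 240.3 and 265 CPM on chow and 191, 187 and 195 CPM on HFD; log2 fold change -0.51, with SE 0.10 and adjusted p = 0.045). The count of falls was 3 without chow 2 and 0 in the other 5 fits.

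Other lipid genes moved singly. Abca1, the exporter that loads cholesterol onto HDL, was at 38.6, 66.6 and 54.4 CPM on chow and 109, 119 and 97.01 CPM on HFD (log2 fold change 1.02, with SE 0.18 and adjusted p = 0.036). Chow 1 was the lowest library, and all HFD libraries were above chow, as for every gene that rose. Abhd6, a monoacylglycerol hydrolase, was at 44.6, 39.002 and 41.9 CPM on chow and 104, 69.9 and 121 CPM on HFD (log2 fold change 1.23, with SE 0.18 and adjusted p = 0.021). Fads2, a fatty acid desaturase, fell slightly (log2 fold change -0.38, with SE 0.08 and adjusted p = 0.049). Of 25 cholesterol synthesis genes none passed in edgeR (10 at an unadjusted p under 0.05, 6 in DESeq2 and 0 in limma-voom), 22 had values below 0 and the median was -0.28. Without chow 2, 13 of the 25 fell. Insig1, a brake on sterol synthesis, was at 176, 110.2 and 137 CPM on chow and 88.5, 87.1 and 102 CPM on HFD, with chow 1 highest and HFD lower in every library (log2 fold change -0.61, with SE 0.16 and adjusted p = 0.08). Abcc3, a basolateral bile acid and conjugate exporter, fell from 199, 128 and 169 CPM on chow to 65.3, 83.02 and 62.2 CPM on HFD (log2 fold change -1.24, with SE 0.17 and adjusted p = 0.017), and the ileal bile acid list otherwise held no gene that passed.

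Pparg, the receptor related to PPARA, fell. It was at 10.97, 9.03 and 9.53 CPM on chow and 3.88, 3.45 and 3.82 CPM on HFD, and each HFD library was more than 2-fold below the lowest chow library. The decrease was 2.65-fold (log2 fold change -1.40, with SE 0.14 and adjusted p = 0.0038), and it passed in all 6 fits that leave out a library. Of 14 tested genes of PPARs, RXRs and coactivators it was the only one that passed. Of 8 tested adipocyte markers Pparg was also the only one that passed, while 6 of the 8 had values below 0 (median -1.02, and -0.22 over the members that pass a filter of 50 counts in 3 libraries). Adipoq, the defining adipocyte hormone, was at 0.0281 to 0.457 CPM in these libraries.

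Retinoid genes formed a further group. Dietary fat carries vitamin A and carotenoids into enterocytes. Rbp2, the cellular retinol-binding protein of the small intestine, was at 94.2, 103 and 102 CPM on chow and 158, 185 and 223 CPM on HFD (log2 fold change 0.92, with SE 0.12 and adjusted p = 0.0095). Retsat, which saturates retinol, was at 17.8, 20.6 and 18.4 CPM on chow and 44.6, 29.97 and 46.3 CPM on HFD (log2 fold change 1.09, with SE 0.16 and adjusted p = 0.017). Bco2, which cleaves carotenoids, was at 15.9, 19.98 and 18.3 CPM on chow and 30.4, 34.01 and 29.2 CPM on HFD (log2 fold change 0.79, with SE 0.11 and adjusted p = 0.011). None of the 3 genes overlapped between the groups, as for every gene that passed. In the list of 16 retinoid genes these 3 rose, none fell, and 14 had values above 0 (median 0.44). Over all genes tested 0.754% rose and 50.9% had values above 0. The count was 0 without chow 3, 1 without HFD 1 and 2 without chow 1.

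Of 14 heat shock genes 7 rose and 7 did not pass. Cytosolic chaperones fold proteins and are switched on by the factor HSF1 under heat and other stress. None fell, and all 14 had values above 0 (median 0.71). Over all genes tested 0.754% rose and 50.9% had values above 0. Hsph1, an HSP110 nucleotide exchange factor, was at 39.2, 35.01 and 37.2 CPM on chow and 137, 86.4 and 108 CPM on HFD (log2 fold change 1.57, with SE 0.15 and adjusted p = 0.0044). Chordc1, a co-chaperone of HSP90, was at 25.5, 21.7 and 23.2 CPM on chow and 55.02, 42.5 and 51.2 CPM on HFD (log2 fold change 1.08, with SE 0.11 and adjusted p = 0.0044). Both genes passed in all 6 fits that leave out a library, and their groups did not overlap, as for every gene that passed. The inducible HSP70 gene Hspa1a was at 10.1, 7.33 and 8.93 CPM on chow and 77.1, 37.2 and 91.1 CPM on HFD (log2 fold change 2.96, with SE 0.37 and adjusted p = 0.027). Its near-identical neighbour Hspa1b was at 27.97, 22.2 and 25.2 CPM on chow and 165, 75.9 and 182 CPM on HFD (log2 fold change 2.49, with SE 0.35 and adjusted p = 0.035). HFD 2 was the lowest HFD library for both. Reads of this pair can be assigned to either copy, so their separate values are uncertain. Hsp90aa1, Dnaja1 and Hspa8, which encode an inducible HSP90, an HSP40 and the constitutive HSC70, rose by 0.90, 0.74 and 0.69 (SE 0.14, 0.11 and 0.12, adjusted p = 0.017, 0.017 and 0.023). The list's count was 2 without chow 3, 2 without HFD 1 and 4 without HFD 3. Of 19 unfolded protein response genes, which serve the endoplasmic reticulum and not the cytosol, only Pdia4 rose (log2 fold change 0.43, with SE 0.09 and adjusted p = 0.045).

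The windows of Hsph1 and Chordc1 are shown because both hold a heat shock element, the binding sequence of HSF1. It was searched as GAANNTTCNNGAA on both strands and is in capitals, with overlapping matches run together. The sequences are from RefSeq, 5′ to 3′ in the direction of the gene. The Hsph1 window is GRCm38.p6 chr5:149636266-149636565, minus strand, and the Chordc1 window GRCm38.p6 chr9:18292017-18292316, plus strand.
Hsph1: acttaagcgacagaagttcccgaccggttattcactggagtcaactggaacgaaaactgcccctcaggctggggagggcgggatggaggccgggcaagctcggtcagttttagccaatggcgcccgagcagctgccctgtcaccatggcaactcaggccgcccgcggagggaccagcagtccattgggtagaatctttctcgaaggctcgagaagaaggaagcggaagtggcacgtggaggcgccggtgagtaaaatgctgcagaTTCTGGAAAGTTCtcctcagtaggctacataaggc
Chordc1: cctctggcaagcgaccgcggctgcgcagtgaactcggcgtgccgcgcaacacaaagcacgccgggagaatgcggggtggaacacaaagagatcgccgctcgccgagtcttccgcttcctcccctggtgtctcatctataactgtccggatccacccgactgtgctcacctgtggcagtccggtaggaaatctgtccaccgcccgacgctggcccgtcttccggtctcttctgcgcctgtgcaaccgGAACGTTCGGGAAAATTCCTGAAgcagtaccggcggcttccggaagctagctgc
Chordc1 held 3 overlapping matches and Hsph1 held 1. Of all 27025 genes with a window 179 (0.662%) held the element, against 4 of the 10 listed heat shock genes found in the table (Chordc1, Hspd1, Hspe1 and Hsph1). Of the 5 listed heat shock genes that rose and had a window, 2 held it. Hspa1a and Hspa1b had windows without these letters.

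Of 30 listed interferon-inducible genes 12 fell, none rose and 18 did not pass. These genes encode GTPases that attack intracellular parasites, antiviral proteins and chemokines, and interferon-gamma is a main inducer of many. Values were below 0 for 29 of the 30 (median -0.91). Over all genes tested 1.23% fell and 50.9% had values above 0. For 22 of the 30 all HFD libraries lay below all chow libraries, against 13.2% of all genes tested. Ifit2, an antiviral protein, was at 17.2, 9.99 and 11.9 CPM on chow and 3.74, 3.85 and 3.28 CPM on HFD (log2 fold change -1.84, with SE 0.20 and adjusted p = 0.0061). Irgm2, an immunity-related GTPase outside the list, was at 77.6, 47.5 and 59.1 CPM on chow and 20.9, 17.3 and 20.1 CPM on HFD (log2 fold change -1.66, with SE 0.17 and adjusted p = 0.0073). These 2 genes passed in all 6 fits that leave out a library. The GTPase gene Igtp was at 95.4, 44.7 and 66.03 CPM on chow and 15.4, 14.8 and 18.5 CPM on HFD (log2 fold change -2.08, with SE 0.28 and adjusted p = 0.024). Gbp2, a guanylate-binding protein, was at 73.4, 28.6 and 45.1 CPM on chow and 10.6, 7.13 and 10.3 CPM on HFD (log2 fold change -2.39, with SE 0.38 and adjusted p = 0.049), and Iigp1 at 29.9, 12.2 and 19.4 CPM on chow and 5.52, 4.18 and 4.52 CPM on HFD (log2 fold change -2.11, with SE 0.32 and adjusted p = 0.031). In each of these genes chow 1 was highest, chow 2 lowest of the chow libraries and chow 3 between them, while the HFD libraries lay close together below. The list's count was 1 without chow 3, 1 without HFD 1, 1 without HFD 2 and 2 without HFD 3, and 24 without chow 2. The count was 0 with the proximal score as a covariate, a fit that cannot separate score from diet. It was 9 with the score that leaves out fat-handling genes. The summed level of the list was 1674 CPM in chow 1, 949 in chow 2, 1274 in chow 3 and 625 to 726 on HFD.

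Other interferon-linked genes also fell. Tap1, the peptide transporter of MHC class I loading, was at 188, 112 and 148 CPM on chow and 50.7, 56.3 and 58.2 CPM on HFD (log2 fold change -1.44, with SE 0.17 and adjusted p = 0.0089). Of 17 MHC class I genes Tap1 and H2-T22 fell and none rose (median -0.30). The count was 8 without chow 2, 1 without chow 1, HFD 2 or HFD 3 and 0 without chow 3 or HFD 1. Cd274, which encodes the checkpoint ligand PD-L1, was at 29.4, 13.6 and 20.3 CPM on chow and 4.85, 5.87 and 6.37 CPM on HFD (log2 fold change -1.89, with SE 0.27 and adjusted p = 0.024). Ubd, a ubiquitin-like protein induced by interferon-gamma and TNF, was at 51.2, 40.02 and 44.3 CPM on chow and 10.96, 17.6 and 11.2 CPM on HFD (log2 fold change -1.77, with SE 0.19 and adjusted p = 0.0078) and passed in all 6 fits that leave out a library. Socs1, a feedback inhibitor of cytokine signalling, and Irf8, an interferon regulatory factor, changed by -1.38 (SE 0.21, adjusted p = 0.018) and -0.95 (SE 0.18, adjusted p = 0.047). Gzmb, the cytotoxic granule protease of intraepithelial lymphocytes, was at 41.98, 19.5 and 29.02 CPM on chow and 5.47, 7.19 and 9.35 CPM on HFD (log2 fold change -2.04, with SE 0.32 and adjusted p = 0.041). Of 19 T and intraepithelial lymphocyte genes it was the only one that passed (median -0.03). In bulk tissue, fewer cells of a type and less RNA per cell cannot be told apart.

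The windows of Igtp, Irgm2 and Gbp2 are shown because each holds the core of an interferon-stimulated response element, searched as GAAANNGAAA on both strands and printed in capitals. They are from RefSeq and lie on the plus strand at GRCm38.p6 chr11:58199306-58199605, GRCm38.p6 chr11:58214727-58215026 and GRCm38.p6 chr3:142620413-142620712.
Igtp: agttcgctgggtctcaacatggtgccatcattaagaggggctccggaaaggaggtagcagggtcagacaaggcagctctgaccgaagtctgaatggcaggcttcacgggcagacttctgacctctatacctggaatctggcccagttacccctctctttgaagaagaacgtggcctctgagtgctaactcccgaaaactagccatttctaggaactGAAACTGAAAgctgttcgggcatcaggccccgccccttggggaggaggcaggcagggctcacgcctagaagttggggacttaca
Irgm2: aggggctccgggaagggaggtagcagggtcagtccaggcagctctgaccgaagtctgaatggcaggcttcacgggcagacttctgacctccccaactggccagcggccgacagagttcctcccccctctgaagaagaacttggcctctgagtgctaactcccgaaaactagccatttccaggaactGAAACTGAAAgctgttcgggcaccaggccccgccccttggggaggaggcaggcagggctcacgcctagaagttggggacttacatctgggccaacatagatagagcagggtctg
Gbp2: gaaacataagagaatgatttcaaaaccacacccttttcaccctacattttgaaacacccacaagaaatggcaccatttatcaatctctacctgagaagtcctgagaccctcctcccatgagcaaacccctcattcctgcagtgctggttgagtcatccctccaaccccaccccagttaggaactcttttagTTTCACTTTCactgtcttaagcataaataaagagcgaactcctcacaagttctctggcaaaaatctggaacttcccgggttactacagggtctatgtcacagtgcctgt
The match begins 34 bases before the start site of Igtp, 64 before that of Irgm2 and 59 before that of Gbp2. Igtp and Irgm2 are neighbouring members of a family, and their windows share an identical run of 61 bases. Where such genes overlap or share sequence, reads can be assigned to either. Of 27025 genes with a window 1079 (3.99%) held the core, against 13 of the 21 listed interferon genes in the table and 7 of the 9 that fell. Among all genes that passed and had a window, 9 of 101 that rose (8.91%) and 15 of 145 that fell (10.3%) held the core. The 9 that rose included 4 interferon-inducible genes. These were Ifi203, Ifi206, Ifi213 and Ifi214 of the IFI200 family of nucleic acid-binding proteins, which lie together on chromosome 1. They were singled out after their values were seen. Ifi203 was at 4.25, 3.55 and 4.68 CPM on chow and 7.28, 10.3 and 7.68 CPM on HFD (log2 fold change 1.02, with SE 0.18 and adjusted p = 0.025), and Ifi206 at 0.645, 0.757 and 0.814 CPM on chow and 2.26, 2.64 and 1.76 CPM on HFD (log2 fold change 1.59, with SE 0.24 and adjusted p = 0.017). Of 12 tested genes of the family 4 rose and none fell. The IFI200 genes are near copies, so single values are uncertain.

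**Figure D3:**
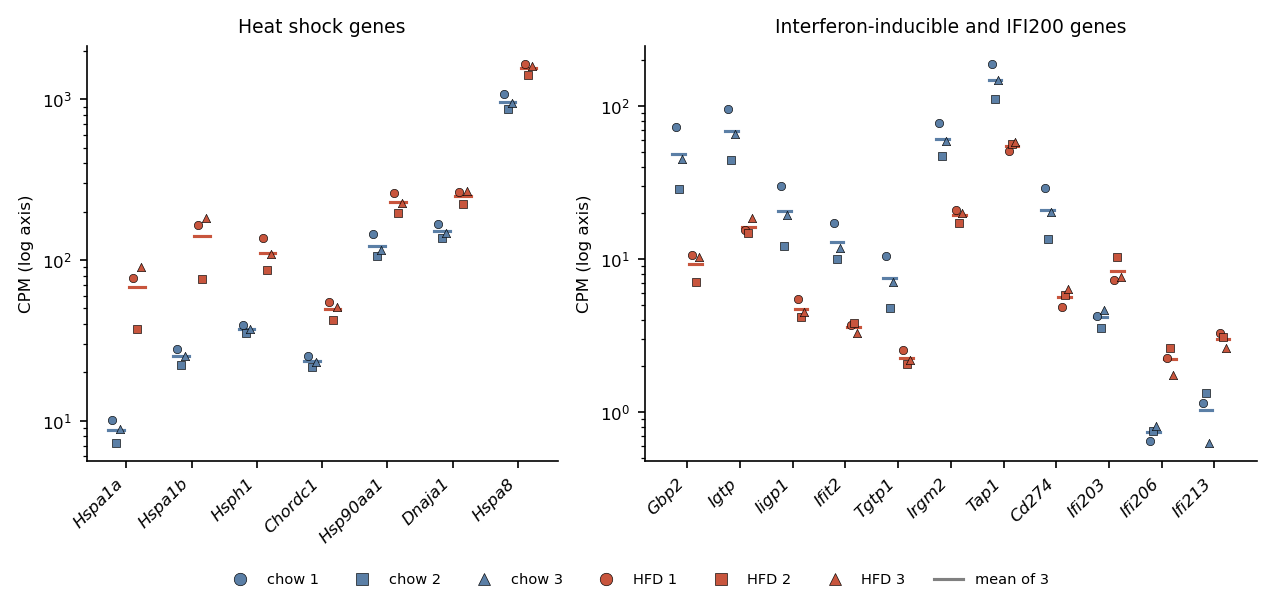
CPM (log axis) in each of the 6 PparaΔIE libraries. Left, 7 heat shock genes, higher in every HFD library (red) than in any chow library (blue). Right, 8 interferon-linked genes lower on HFD, with chow 1 (circle) above chow 3 (triangle) and chow 2 (square), and 3 IFI200 genes higher on HFD.

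Some metallothionein and detoxification genes fell, although most members of their lists did not pass. Metallothioneins bind zinc and copper. Mt2 was at 15.2, 23.01 and 20.97 CPM on chow and 3.07, 1.99 and 3.31 CPM on HFD (log2 fold change -2.82, with SE 0.22 and adjusted p = 0.0018), and every HFD library was more than 4-fold below the lowest chow library. It passed in all 6 fits that leave out a library. Mt1, its neighbour, was at 251, 238 and 242 CPM on chow and 175, 167 and 194 CPM on HFD, and fell far less (log2 fold change -0.45, with SE 0.09 and adjusted p = 0.041). Mt1 did not pass without chow 1, chow 3, HFD 1 or HFD 2. The other 12 tested genes of metallothioneins and zinc transport did not pass (median of 14 genes -0.02). Of 18 NRF2 targets 4 fell (Gsta1, Gsta3, Gstm1 and Gstm3), 1 rose (Osgin1, log2 fold change 0.56) and the median was -0.12. Glutathione transferases join glutathione to reactive compounds. Gsta3 was at 4.49, 3.83 and 4.103 CPM on chow and 1.06, 1.43 and 1.396 CPM on HFD (log2 fold change -1.67, with SE 0.19 and adjusted p = 0.0073). Gstm2, a member of the mu class outside the list, was at 7.18, 6.26 and 5.76 CPM on chow and 3.01, 2.56 and 2.61 CPM on HFD (log2 fold change -1.23, with SE 0.16 and adjusted p = 0.0089). Both passed in all 6 fits that leave out a library. Across 13 tested transferases of the alpha, mu and pi classes, a family counted after the values were seen, 6 fell, none rose and the median was -0.73. Members of a class are similar in sequence and can share reads. The NRF2 falls numbered 1 without chow 3, HFD 1 or HFD 2 and 2 without HFD 3.

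Some genes of goblet cells and of surface defence fell. All 14 goblet cell markers had values below 0 (median -0.37) and 3 fell. Over all genes tested 1.23% fell and 50.9% had values above 0. Spink4, a secreted goblet cell peptide, was at 383, 234 and 310.1 CPM on chow and 108, 129.8 and 105 CPM on HFD (log2 fold change -1.43, with SE 0.17 and adjusted p = 0.0089). Spdef, a transcription factor of goblet cell maturation, was at 26.7, 27.2 and 25.97 CPM on chow and 19.4, 18.1 and 19.03 CPM on HFD (log2 fold change -0.50, with SE 0.08 and adjusted p = 0.023), and Bcas1 changed by -0.65 (SE 0.11, adjusted p = 0.026). The count was 0 without chow 3 or HFD 1, 1 without HFD 2, 2 without HFD 3 and 7 without chow 2. Cd177, a GPI-anchored surface protein, was at 29.7, 21.8 and 26.8 CPM on chow and 4.02, 5.28 and 3.31 CPM on HFD (log2 fold change -2.63, with SE 0.18 and adjusted p = 0.00062), and its chromosome 7 neighbour Ceacam10 at 10.1, 7.46 and 8.54 CPM on chow and 2.48, 2.47 and 1.73 CPM on HFD (log2 fold change -1.96, with SE 0.19 and adjusted p = 0.0038). Both passed in all 6 fits that leave out a library, and their groups did not overlap, as for every gene that passed. Lypd8, a secreted LY6 protein that keeps flagellated bacteria from the epithelium, was at 2569.8, 1646 and 2094 CPM on chow and 1060.2, 1281 and 1109.7 CPM on HFD (log2 fold change -0.87, with SE 0.16 and adjusted p = 0.03). In the list of 10 Plet1, Cd177 and LY6 genes Cd177, Gml2 and Lypd8 fell and none rose (median -1.21). That count was 1 without chow 3, HFD 1 or HFD 3, 2 without HFD 2 and 5 without chow 2. The antimicrobial lectin Reg3g was at 17763, 6830.1 and 11397 CPM on chow and 3402, 6149.7 and 3412 CPM on HFD. Its groups did not overlap, but the chow libraries differed more than 2-fold, and it did not pass (log2 fold change -1.47, with SE 0.40 and adjusted p = 0.11). None of 19 REG and antimicrobial genes passed in edgeR (median -0.64). Of these 13 had an unadjusted p under 0.05, 11 fell and 1 rose in DESeq2, 0 passed in limma-voom, and 8 fell without chow 2.

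Epithelial barrier genes gave a smaller set. Cldn4, a claudin of tight junctions, was at 125, 127 and 133 CPM on chow and 63.1, 63.02 and 81.98 CPM on HFD (log2 fold change -0.89, with SE 0.11 and adjusted p = 0.0084). Prss8, a membrane-anchored serine protease, was at 13.1, 13.04 and 13.1 CPM on chow and 6.22, 6.32 and 6.34 CPM on HFD (log2 fold change -1.06, with SE 0.10 and adjusted p = 0.0038), with nearly equal libraries within each group, and passed in all 6 fits that leave out a library. Of 17 claudin and tight junction genes Cldn4 and Cldn23 fell and none rose (median -0.06). That count was 0 without chow 3 or HFD 1 and 1 without HFD 2 or HFD 3. The list of 26 cell cycle genes held no gene that passed in edgeR (median -0.14, with 6 at an unadjusted p under 0.05, 2 in DESeq2 and 0 in limma-voom). Of 16 stem and crypt base genes only Smoc2 passed, and it fell (log2 fold change -0.51, with SE 0.09 and adjusted p = 0.027).

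Of 16 smooth muscle genes 5 rose and 11 did not pass. They are markers of the muscle layers that surround the mucosa. Myh11, smooth muscle myosin heavy chain, was at 19.8, 16.2 and 17.3 CPM on chow and 49.5, 38.03 and 38.1 CPM on HFD (log2 fold change 1.24, with SE 0.13 and adjusted p = 0.0044) and passed in all 6 fits that leave out a library. Synpo2, an actin-binding protein, was at 3.07, 2.74 and 3.62 CPM on chow and 8.39, 7.05 and 6.59 CPM on HFD (log2 fold change 1.23, with SE 0.17 and adjusted p = 0.011), and the intermediate filament gene Synm at 2.47, 2.71 and 2.29 CPM on chow and 8.31, 5.98 and 5.099 CPM on HFD (log2 fold change 1.37, with SE 0.20 and adjusted p = 0.016). The filamin genes Flna and Flnc rose by 0.59 (SE 0.10, adjusted p = 0.026) and 0.91 (SE 0.20, adjusted p = 0.048). All 16 listed genes had values above 0 (median 0.87). Over all genes tested 0.754% rose and 50.9% had values above 0. The count of rises was 1 without HFD 1, 2 without chow 3, 3 without HFD 2 and 7 without chow 1 or chow 2. Their summed level was 249.7 to 274.2 CPM on chow and 380.3 to 395 CPM on HFD, without overlap. Grem1, a BMP antagonist made by muscle layer and crypt base stromal cells, was at 1.94, 1.38 and 1.45 CPM on chow and 6.33, 5.11 and 4.31 CPM on HFD (log2 fold change 1.72, with SE 0.21 and adjusted p = 0.0084). It was the only one of 14 fibroblast markers that passed (median 0.22). A score over the smooth muscle list was -0.20, -0.55 and -0.31 on chow and 0.52, 0.26 and 0.28 on HFD. The groups did not overlap in it, so a fit with the score cannot separate score from diet. With this smooth muscle score as a covariate 84 genes passed, and 23 of them were among the 335. With that score the heat shock list and the PPARA target list held 0 genes that passed and the interferon list 7.

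Markers of other cells gave few calls. None of 16 B and plasma cell genes (median 0.63), 9 B cell follicle genes (median 0.84), 13 myeloid genes (median 0.08) or 14 endothelial genes (median 0.35) passed in edgeR. At an unadjusted p under 0.05 these lists held 6, 6, 0 and 4 genes. In DESeq2 5, 3, 0 and 0 passed, and in limma-voom 0 in each. Of the 5 B and plasma cell genes that passed in DESeq2, 4 rose and 1 fell. The B cell gene Cr2 was at 8.85, 8.32 and 7.84 CPM on chow and 14.2, 28.2 and 11.3 CPM on HFD, with HFD 2 highest. Cd74, the invariant chain of MHC class II, rose (764, 744 and 781 CPM on chow and 1097, 1168 and 1211 CPM on HFD; log2 fold change 0.60, with SE 0.10 and adjusted p = 0.019), and it was the only one of 10 class II genes that passed (median 0.24). Of 16 enteroendocrine genes Sst, somatostatin, rose (log2 fold change 0.72, with SE 0.14 and adjusted p = 0.034) and Tac1, the precursor of substance P, fell. Tac1 was at 53.9, 21.99 and 38.6 CPM on chow and 5.91, 6.37 and 3.19 CPM on HFD (log2 fold change -2.88, with SE 0.42 and adjusted p = 0.043). Sst and Tac1 both passed without chow 2, and neither passed when any other library was left out. The hepatocyte marker Alb was at 0 in 4 of the 6 libraries and the acinar marker Pnlip at 0 in all 6. Other members were expressed: 4 of 10 hepatocyte and 3 of 16 acinar markers had enough counts to be tested, and none passed. The summed level was 336 to 470 CPM for the hepatocyte list and 9.18 to 11.2 CPM for the acinar list. Of 9 tested colonocyte markers Car1 and Aqp4 fell. That count was 0 without chow 3, HFD 1, HFD 2 or HFD 3 and 4 without chow 2, and Car1 was at or below 1.24 CPM throughout.

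**Figure D4:**
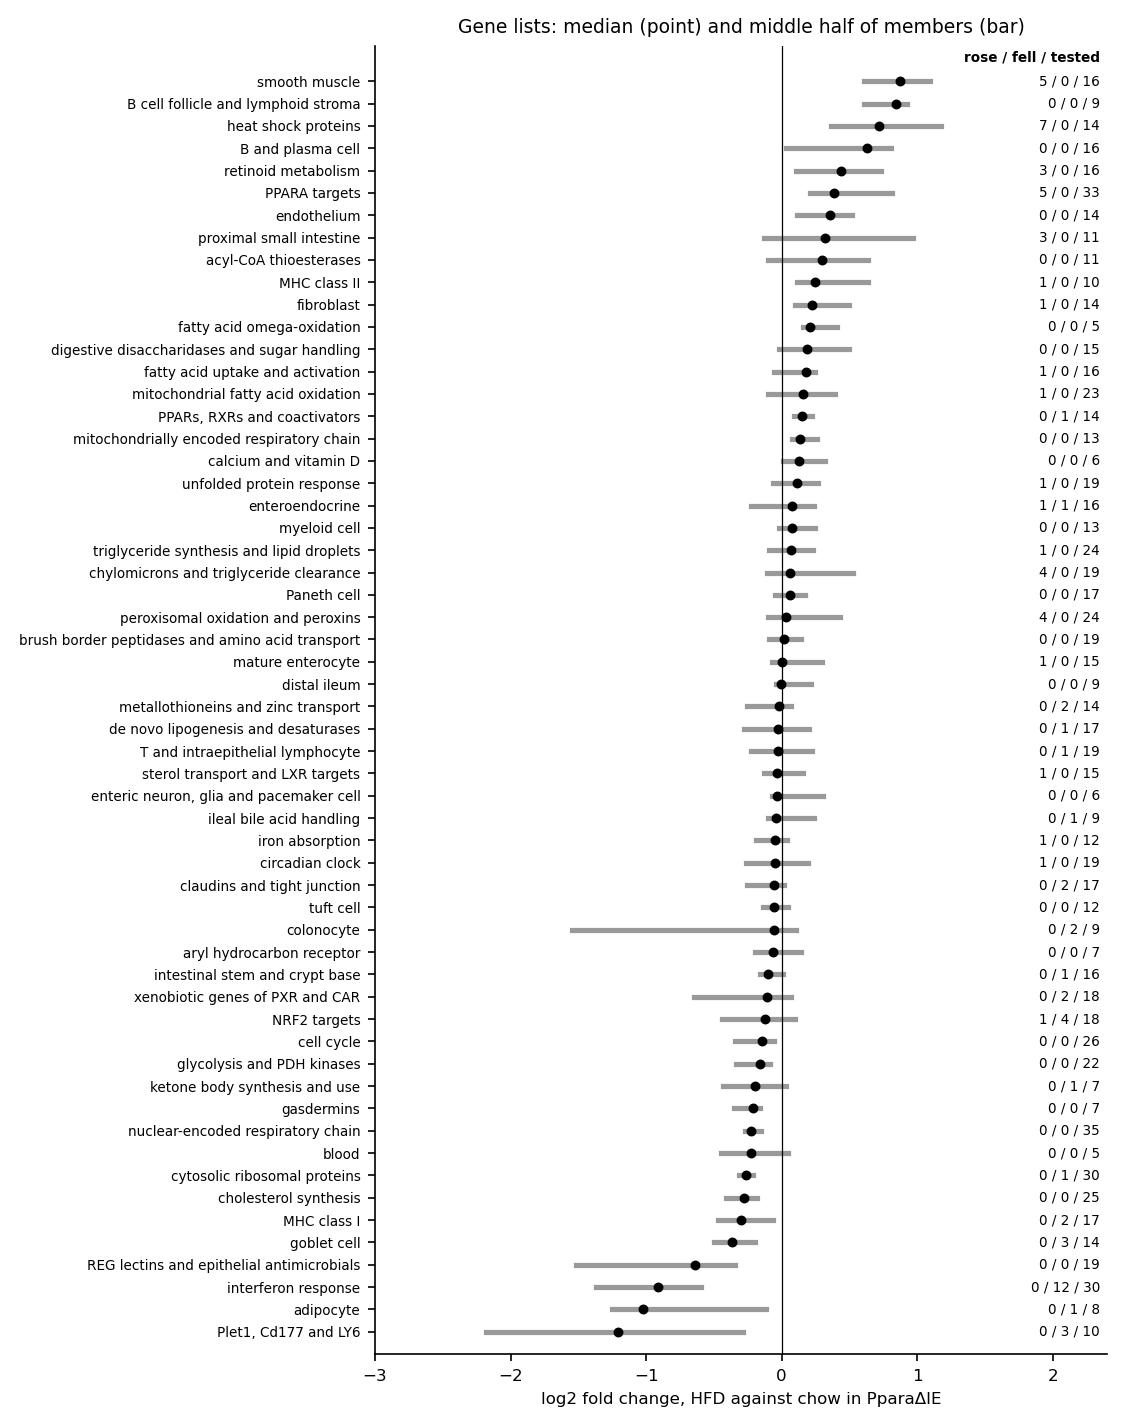
Median log2 fold change of HFD against chow in PparaΔIE (point) and interquartile range of its members (bar) for each list with at least 5 tested genes, with the number that rose, fell and were tested at the right. Smooth muscle (0.87), B cell follicle (0.84) and heat shock (0.71) lists lie above the all-gene median of 0.01, and the Plet1, Cd177 and LY6 (-1.21), adipocyte (-1.02) and interferon (-0.91) lists below it.

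Further genes were among the largest changes. Klf11, a transcription factor induced by TGF-beta, was at 2.15, 3.42 and 2.53 CPM on chow and 7.31, 7.67 and 9.68 CPM on HFD (log2 fold change 1.60, with SE 0.20 and adjusted p = 0.0084). Aqp3, a water and glycerol channel, was at 0.807, 1.67 and 1.18 CPM on chow and 2.54, 3.54 and 5.89 CPM on HFD (log2 fold change 1.70, with SE 0.36 and adjusted p = 0.049). Gal3st2b, a sulfotransferase of a family of near copies, was at 3.74, 6.16 and 5.28 CPM on chow and 19.7, 9.83 and 20.1 CPM on HFD (log2 fold change 1.71, with SE 0.31 and adjusted p = 0.045). Trpc1, a cation channel, was at 1.91, 2.22 and 2.41 CPM on chow and 3.598, 9.16 and 9.44 CPM on HFD, with HFD 1 much closer to chow than the other HFD libraries (log2 fold change 1.76, with SE 0.35 and adjusted p = 0.048). Mcpt1, a mucosal mast cell protease, rose by 1.57 (SE 0.32, adjusted p = 0.045), from a level of 1.802 CPM or less. For all 5 genes the groups did not overlap, which the rule for naming the largest changes required. Apart from Klf11, which passed in 5 of the 6 fits that leave out a library, each passed in 1 to 3 of them.

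The last comparison asked where the response without epithelial Ppara differed from the response of floxed mice. The 2 responses share no libraries. In the floxed fit 3415 of 16895 genes passed (20.2%, with 10.4% higher and 9.8% lower on HFD). The floxed chow libraries were more alike than those of the other groups, with a biological coefficient of variation of 0.0504 against 0.139 in PparaΔIE chow and 0.131 in PparaΔIE HFD. The numbers of calls therefore do not compare the size of the responses. Of the 335 genes 257 also passed in the same direction in floxed, which is 76.7% of the PparaΔIE calls and 7.53% of the floxed calls. The difference itself was tested as a genotype by diet term in all 12 libraries. One of 17602 genes passed (0.00568%), the immunoglobulin segment gene Ighv1-22. At an unadjusted p under 0.05 there were 1116 genes (6.34%).

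The median fold change of the PPARA targets was smaller in PparaΔIE, although no single one passed the test of the difference in edgeR. DESeq2 called 47 genes for the difference, among them the targets Acaa1b, Fabp1 and Creb3l3. Fabp1 changed by 1.84 in PparaΔIE and by 5.48 in floxed (difference -3.64, SE 0.83, adjusted p = 0.48). Angptl4 changed by 1.26 and 2.22 (difference -0.96, SE 0.30, adjusted p = 0.68). The difference, PparaΔIE minus floxed, was below 0 for all 33 targets (median -0.24), against 51.0% of all genes (median -0.01), and 12 of the 33 had an unadjusted p under 0.05. In floxed 27 of the 33 rose (median 0.66), against 10.4% of all genes, and in PparaΔIE 5 (median 0.39), against 0.754%. As above, these numbers of calls do not compare the size of the responses. Cpt1a and Pex11a had nearly the same value in both genotypes (0.64 against 0.68 and 0.61 against 0.62). Outside that list, Apoa4 changed by 1.93 in PparaΔIE and 3.35 in floxed (difference -1.41, SE 0.50, adjusted p = 0.72), and Retsat by 1.09 and 2.29 (difference -1.19, SE 0.34, adjusted p = 0.63). Retsat passed the test of the difference in DESeq2 (adjusted p = 0.0238) and Apoa4 did not.

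Several groups with genes that passed in PparaΔIE had values of the same direction in floxed. For interferon genes the median was -0.91 in PparaΔIE and -1.10 in floxed, and none of 30 had an unadjusted p under 0.05 for the difference. That difference, PparaΔIE minus floxed, was below 0 for 7 of the 30 (median 0.21), against 51.0% of all genes. Heat shock genes had medians of 0.71 and 0.51. Their difference was below 0 for 1 of 14 genes (median 0.23), and 1 had an unadjusted p under 0.05. Mt2 changed by -2.82 and -2.69, Cd177 by -2.63 and -2.41, and Pparg by -1.40 and -1.11. The differences were -0.13, SE 0.37, adjusted p = 0.99 for Mt2, -0.21, SE 0.23, adjusted p = 0.95 for Cd177 and -0.29, SE 0.18, adjusted p = 0.87 for Pparg. These values do not show that the responses are equal.

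Other groups differed more in value. Mt1 changed by -0.45 in PparaΔIE and -1.41 in floxed (difference 0.97, SE 0.18, adjusted p = 0.33). Smooth muscle genes had a median of 0.87 in PparaΔIE and -0.21 in floxed. The difference was above 0 for all 16 (median 1.36), and 13 had an unadjusted p under 0.05. Myh11 changed by 1.24 and -0.21 (difference 1.45, SE 0.36, adjusted p = 0.51). For MHC class II the difference was above 0 for all 10 genes (median 0.61), and for xenobiotic genes of the receptors PXR and CAR it was below 0 for all 18 (median -0.61). Cldn4 changed by -0.89 and -0.07 (difference -0.81, SE 0.26, adjusted p = 0.7). None of these genes passed the test of the difference in edgeR after adjustment. In DESeq2 Mt1 (adjusted p = 0.00069), 4 of the 16 smooth muscle genes (among them Myh11) and 2 of the 18 xenobiotic genes passed.

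**Figure D5:**
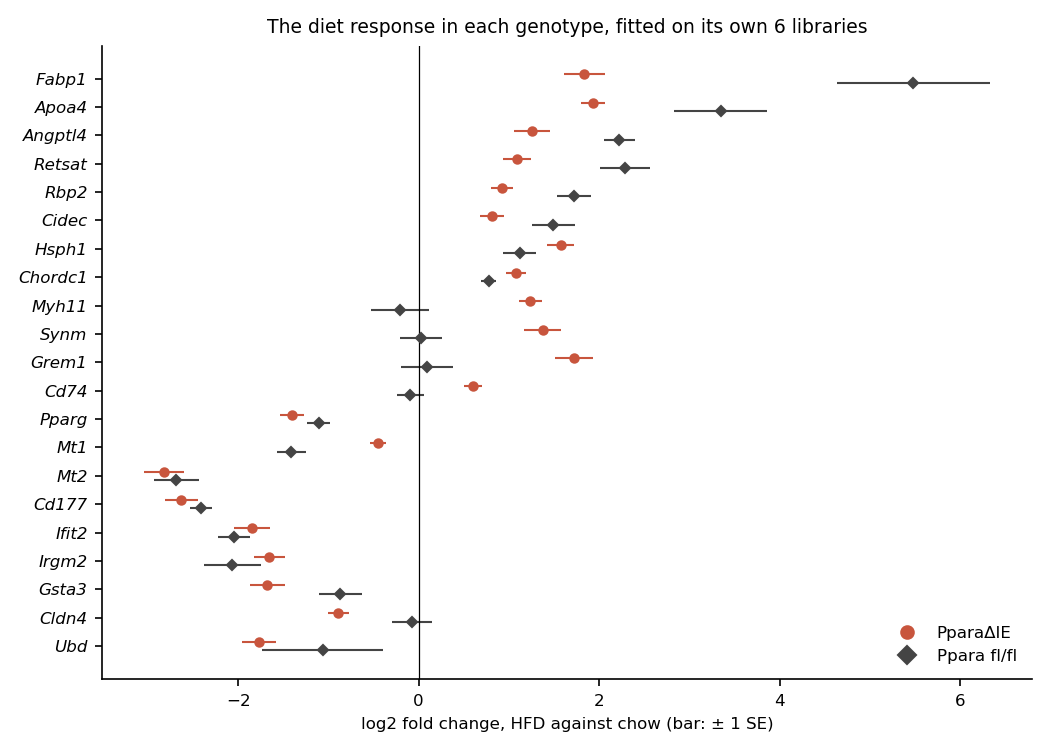
Log2 fold change of HFD against chow with 1 SE for 21 genes, in PparaΔIE (red circles) and floxed mice (dark diamonds), each fitted on its own 6 libraries. Fabp1 and Apoa4 lie further right in floxed, Myh11, Synm and Grem1 further right in PparaΔIE, and Mt2, Cd177 and Ifit2 at similar values in both.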

How the data were processed

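The values the authors deposited are expected counts, that is, read numbers estimated for each gene and left unscaled between libraries. In the 6 PparaΔIE libraries 12.4% to 12.9% of genes had fractional values. Per the labels' protocols, RNA was column-purified from intestine and a stranded total RNA kit was used. Trimmomatic, STAR, Picard, RSEM and the build mm10 are named in the submitters' processing notes. The annotation and the strand setting of the counting are not stated, so counts of a gene and of an overlapping or antisense gene may hold each other's reads.

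Of 47643 gene IDs, 47224 matched GENCODE vM21, which supplied symbols and mm10 coordinates. Expected counts were rounded and tested with edgeR 4.0.16 (TMM, filterByExpr, robust quasi-likelihood F test) in R 4.3.3, on the 6 PparaΔIE libraries alone. The difference between genotypes was fitted on all 12 libraries. CPM use TMM-scaled library sizes. SE were derived from the F statistic. The scripts were tested on simulated data.

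The comparison and all 59 gene lists were chosen with earlier results of these data known, so no list was tested as a set. A list is described by its counts and its median. Named genes were Ppara, the 12 largest changes each way (genes that passed, with an established symbol, a mean log2 CPM at or above 1 and separate groups), up to 5 passing or otherwise 3 members of each list by p, the smallest p of the genotype difference, and defining cell markers. Some genes that this rule names are not reported here. Genes named beyond this rule were chosen after their values were seen. They include the members of the IFI200, S100A and NOX1 groups and the 19 genes that passed in all 6 fits. Alternatives were all 12 or 9 libraries, DESeq2 1.42.0, limma 3.58.1 (voom), other size factors and filters, a fit that is not robust, a replicate block, 3 covariate scores, and each library left out. Promoter windows were taken from the RefSeq table of GRCm38.p6, 250 bases before to 50 after a start site. Tables and figures used Python 3.11.15, pandas 2.3.3 and matplotlib 3.10.9.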

Additional observations from a re-analysis of the deposited data

Results flagged for a closer look

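Ighv1-22, an immunoglobulin heavy chain V segment, was the only gene whose diet response differed between genotypes in the test of the difference itself (edgeR, all 12 libraries). It was at 2.96, 2.69 and 2.87 CPM on chow and 1.25, 1.29 and 0.911 CPM on HFD in PparaΔIE. It fell there (log2 fold change -1.29, SE 0.21, adjusted p = 0.02) and rose in floxed (1.20), and the difference was -2.49, SE 0.34, adjusted p = 0.046. V segments follow the B cell clones of single animals, and near-identical segments can share reads.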

How the results depend on the processing

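The number of genes that passed (335) changed with the libraries fitted and with the test, filter and covariates. It was 1444 with all 12 libraries, 558 with 9, 1130 with the DESeq2 Wald test, 851 without a filter, 84 with the smooth muscle score, 11 with the proximal score and 217 with the proximal score without fat-handling genes (a setting chosen after seeing the data). It ranged from 25 (without chow 3) to 1312 (without chow 2) when a library was left out. Of the 335 genes, 323 passed in the same direction with all 12 libraries, 326 with DESeq2, 224 with limma-voom, 10 with the proximal score and 21 without chow 3. The difference between genotypes (1 gene) gave 47 genes with DESeq2, 4 without a filter, 0 with a filter of 50 counts in 3 libraries (880 at an unadjusted p under 0.05), and 0 to 19 when a library was left out. With the replicate block 400 genes passed (260 shared) and 0 for the difference (1112 at an unadjusted p under 0.05). Same-numbered chow and HFD libraries deviated from their group means with correlations of 0.117, -0.135 and 0.0067 across genes. Those of differently numbered libraries ranged from -0.246 to 0.254. With so few libraries these values do not settle whether replicate numbers pair the samples. Reversals among the values given were as follows. Ppara, which did not pass, was at -0.42 with the proximal score, -0.075 with the score without fat-handling genes and -0.13 to 0.31 when a library was left out. The smooth muscle median was -0.12 when its own score was the covariate.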

Other observations

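Some groups of neighbouring or jointly acting genes fell together and were singled out after their values were seen. Of 8 tested S100A genes, small calcium-binding proteins encoded side by side on chromosome 3, 6 fell and none rose (median -0.86). S100a6 was at 145, 109.6 and 127 CPM on chow and 58.7, 55.2 and 71.97 CPM on HFD (log2 fold change -1.04, with SE 0.13 and adjusted p = 0.0084). S100a14 was at 15.1, 8.43 and 11.7 CPM on chow and 5.55, 5.34 and 3.98 CPM on HFD (log2 fold change -1.24, with SE 0.22 and adjusted p = 0.029). Of 5 genes of the NOX1 complex, an epithelial NADPH oxidase, Nox1, Noxa1 and Noxo1 fell. Nox1 was at 3.07, 2.01 and 2.29 CPM on chow and 0.725, 0.477 and 0.334 CPM on HFD (log2 fold change -2.25, with SE 0.31 and adjusted p = 0.011), and Noxo1, its organizer subunit, at 63.4, 52.9 and 58.7 CPM on chow and 42.9, 40.6 and 34.5 CPM on HFD (log2 fold change -0.57, with SE 0.11 and adjusted p = 0.031). For all 4 genes the groups did not overlap, as for every gene that passed.

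Both tested cold-inducible RNA-binding protein genes fell. Cirbp was at 21.9, 20.6 and 19.7 CPM on chow and 12.3, 13.8 and 12.96 CPM on HFD (log2 fold change -0.67, with SE 0.10 and adjusted p = 0.014), and Rbm3 at 193, 139.9 and 161 CPM on chow and 109.7, 120.2 and 102 CPM on HFD (log2 fold change -0.57, with SE 0.12 and adjusted p = 0.048). Fkbp5, a co-chaperone of steroid receptors, was at 36.3, 35.7 and 35.5 CPM on chow and 97.2, 54.7 and 83.5 CPM on HFD (log2 fold change 1.13, with SE 0.19 and adjusted p = 0.03), and Sgk1, a kinase induced by glucocorticoids, at 145, 174 and 169 CPM on chow and 358, 242 and 379.7 CPM on HFD (log2 fold change 1.01, with SE 0.16 and adjusted p = 0.023). HFD 2 was the lowest HFD library for both. The clock gene Arntl rose (log2 fold change 1.01, with SE 0.18 and adjusted p = 0.029) and was the only one of 19 clock genes that passed. The labels give no time of day of collection. All 30 cytosolic ribosomal protein genes had values below 0 (median -0.26), and for 26 of them the HFD libraries lay below the chow libraries, against 13.2% of all genes tested. Only Rps2 passed (log2 fold change -0.47, with SE 0.10 and adjusted p = 0.045). The count was 8 without chow 2, 0 in the other 5 fits that leave out a library and 9 in DESeq2.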
